A study of Canis lupus familiaris with 26 samples.

Results

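The canine corpus luteum (CL), the gland that forms from the ovulated follicle and secretes progesterone, was examined for 7 genes of NF-kB signalling and acute inflammation, out of 19856 genes counted in each sample. The rule that chose them names genes and sets no threshold on a value, but it was made with earlier results of these data known. They are NFKB1 (ENSCAFG00000010730) and NFKBIA (ENSCAFG00000013418) of the signalling pathway, the cytokine genes IL1B (ENSCAFG00000007249), IL6 (ENSCAFG00000002733) and IL10 (ENSCAFG00000011443), and the adhesion molecule genes ICAM1 (ENSCAFG00000031460) and SELE (ENSCAFG00000015169). Identifiers are those of Ensembl for CanFam3.1. They were paired with symbols through the study's lists of differentially expressed genes (DEGs), so each of the 7 genes was on at least 1 list drawn from these same samples, and that they moved somewhere is not independent evidence.

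Poly-A selected RNA was sequenced from the CL of 26 mixed-breed bitches of various ages in spontaneous cycles, collected by ovariohysterectomy on day 5, 10, 20 or 30 from ovulation. Treated dogs received 10 mg/kg of firocoxib (Previcox), an inhibitor of the prostaglandin-forming enzyme COX2, by mouth each day from ovulation until collection. Control dogs were given a placebo according to the sample protocols, while the design text calls them untreated. Day 5 had 4 control and 4 treated dogs, and days 10, 20 and 30 had 3 of each. Dogs are named here by the animal number of their label, which recurs between groups without denoting the same animal. Each sample was CL tissue of 1 dog, dissected from the ovary and holding all its cell types. The tests between groups set a difference against the spread between these dogs. On days 10 and 30, the authors had removed a sequenced sample from each control and each treated group as an outlier. The spread between dogs in those groups may therefore be understated, in the SDs and in every test that uses them.

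NF-kB is a family of dimeric transcription factors that inhibitory IkB proteins hold in the cytoplasm. Cytokine and Toll-like receptors trigger the breakdown of these inhibitors, and the freed dimers enter the nucleus and turn on genes for cytokines, chemokines, adhesion molecules and the inhibitors themselves. In the CL, leukocytes and cytokines are known to take part both in the formation of the gland and in its regression.

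Each sample had 12831896 to 22658950 counted reads. Levels are given as CPM, which are counts scaled to a common library size with edgeR's TMM factors. They compare samples for a given gene and not genes with each other, since no gene lengths were used. The luteal markers FDX1, PRLR, LHCGR, CYP19A1 and INHA had reads in all 26 samples, and their summed level ranged from 423 to 4207 CPM. In the 3 day 20 treated samples, 8 oocyte markers with an identifier summed to 163 to 283 CPM against 4.75 to 9.27 in day 20 controls, and dog 3 of this group had the lowest luteal sum of all samples.

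The level of NFKB1, which encodes the precursor of a DNA-binding NF-kB subunit, had the smallest ratio of highest to lowest sample among the 7 genes, from 24.6 to 56.5 CPM. Group means (± SD, n = 4 on day 5 and n = 3 on the other days) were 48.8 ± 6.87 CPM in day 20 treated dogs, 47.4 ± 5.35 in day 30 controls, 44.7 ± 3.66 in day 5 controls and 43.8 ± 7.60 in day 5 treated dogs. They were 36.1 ± 1.98 in day 10 treated dogs, 34.6 ± 2.68 in day 20 controls, 34.5 ± 8.65 in day 30 treated dogs and 34.2 ± 6.14 in day 10 controls. Each group overlapped the next in this order, in 7 of 7 neighbouring pairs. NFKBIA, which encodes the inhibitor IkB-alpha and is itself turned on by NF-kB, spanned 28.6 to 232 CPM. Its means were 174 ± 59.5 CPM in day 20 treated dogs, 111 ± 91.3 in day 30 treated dogs, 82.0 ± 38.4 in day 10 controls and 75.3 ± 19.9 in day 10 treated dogs. The remaining groups had 69.4 ± 29.9 in day 5 treated dogs, 68.9 ± 18.3 in day 5 controls, 59.6 ± 11.6 in day 30 controls and 44.5 ± 2.75 in day 20 controls, and the groups of day 30 controls and day 20 controls, the lowest, were the only neighbours without overlap.

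The cytokine genes were counted with few reads, so their levels are imprecise. IL1B encodes a cytokine that starts acute inflammation, and it ranged from 0 to 347 reads, with 3 samples at 0. Its means were 9.35 ± 8.08 CPM in day 20 treated dogs, 2.21 ± 1.84 in day 10 controls, 1.83 ± 1.68 in day 5 treated dogs and 1.23 ± 1.68 in day 30 treated dogs. The other groups had 1.06 ± 1.01 in day 10 treated dogs, 0.913 ± 0.647 in day 5 controls, 0.268 ± 0.412 in day 20 controls and 0.215 ± 0.194 in day 30 controls. IL6, whose product drives the acute phase response, ranged from 0 to 501 reads, with 4 samples at 0. Its means were 12.9 ± 12.5 CPM in day 20 treated dogs, 2.19 ± 2.41 in day 10 controls, 1.82 ± 2.71 in day 30 treated dogs and 1.23 ± 0.728 in day 5 controls. The remaining means were 1.20 ± 1.16 in day 5 treated dogs, 1.11 ± 1.32 in day 10 treated dogs, 0.200 ± 0.222 in day 30 controls and 0.178 ± 0.222 in day 20 controls. IL10, an anti-inflammatory cytokine, ranged from 33 to 376 reads and had another order. It was highest early, with 11.2 ± 6.31 CPM in day 5 controls, 7.95 ± 4.29 in day 10 controls, 6.96 ± 1.86 in day 10 treated dogs and 6.95 ± 4.05 in day 5 treated dogs. Lower means were 6.03 ± 2.91 in day 20 controls, 4.03 ± 0.979 in day 30 treated dogs, 3.06 ± 0.722 in day 20 treated dogs and 2.90 ± 1.18 in day 30 controls. For all 3 cytokine genes each group overlapped its neighbour in the order.

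ICAM1, a surface ligand of leukocyte integrins, was measured with 143 to 7092 reads per sample. Its means were 252 ± 166 CPM in day 20 treated dogs, 71.5 ± 37.0 in day 5 treated dogs, 60.2 ± 69.98 in day 30 treated dogs and 41.8 ± 21.3 in day 10 controls. The other groups had 40.3 ± 10.6 in day 5 controls, 37.6 ± 3.07 in day 10 treated dogs, 18.5 ± 11.9 in day 30 controls and 15.9 ± 6.35 in day 20 controls. Day 10 treated dogs and day 30 controls were the only neighbours in this order that did not overlap. SELE encodes E-selectin, with which activated endothelium slows passing leukocytes, and it had 2 to 749 reads. Its means were 21.6 ± 17.9 CPM in day 20 treated dogs, 6.14 ± 9.49 in day 30 treated dogs, 3.19 ± 2.44 in day 10 controls and 2.94 ± 1.88 in day 5 treated dogs. They were 2.18 ± 1.53 in day 10 treated dogs, 1.82 ± 1.06 in day 5 controls, 1.35 ± 0.816 in day 30 controls and 0.730 ± 0.543 in day 20 controls, with overlap in 7 of 7 neighbouring pairs. For each of the 7 genes but IL10 the day 20 treated group had the highest mean. In NFKBIA, IL1B, IL6, ICAM1 and SELE its SD was large, and dog 2 of the group had lower levels than dogs 3 and 4.

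**Figure D1:**
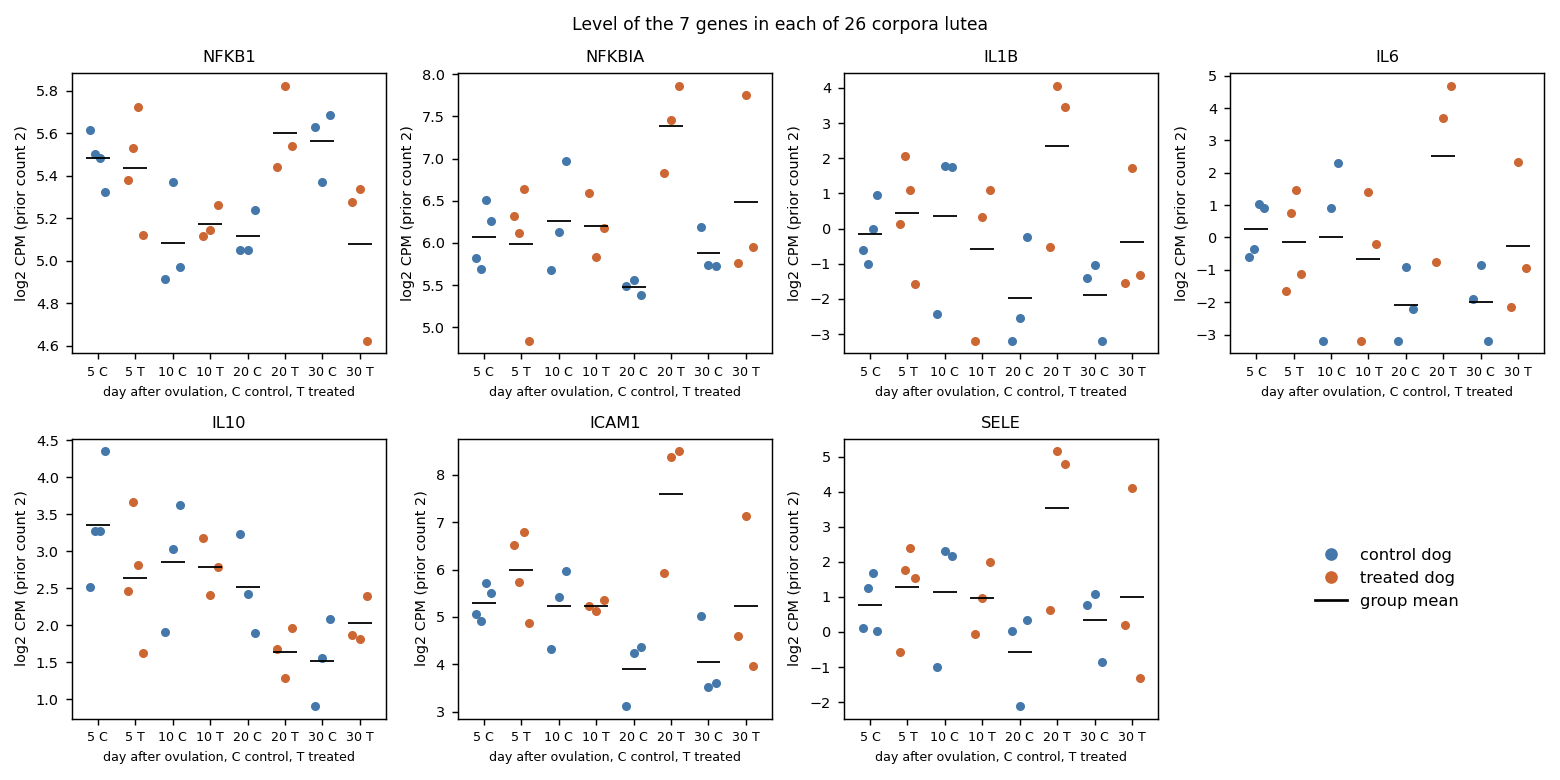
Log2 CPM (prior count 2) of the 7 genes on the vertical axes for the 26 samples, by day and treatment on the horizontal axes, with 1 point per dog and a bar at the group mean of log2 CPM. ICAM1, SELE, IL1B and IL6 have their 2 highest points in day 20 treated dogs, and a single day 30 treated dog lies above the others of its group, while NFKB1 moves over a narrow range and IL10 is highest on day 5.

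Time-dependent effects were assessed in the 13 control dogs, with days 20 and 30 (mature CL, n = 6) over days 5 and 10 (early CL, n = 7). ICAM1 and IL6 were lower in the mature CL and passed both thresholds used for DEGs, a P-value under 0.01 and an FDR (Benjamini-Hochberg) under 0.1 by the quasi-likelihood test of edgeR. Fold changes are given on the log2 scale ± standard error (SE). NFKBIA, IL1B, IL10 and SELE had lower means without passing, and NFKB1 had nearly equal means. In all, 2 of the 7 genes were called, both lower, against 20.5% of all genes tested in either direction and 10.4% called lower. An unadjusted P under 0.05 was found for 5 genes, all lower, against 37.1% of genes in either direction and 19% lower. The median log2 fold change was -1.21 for the 7 genes and 0.019 over all genes. IL6 and IL1B reached the filter of 10 reads only through the early controls, where they were higher (means of 31.4 and 28.7 reads early and 3.17 and 4.33 later), so a difference in this direction was part of their entry into the test and their calls are no independent support. Of the 5 genes that reached it in both stages, 1 was called, ICAM1, and the median was -1.15. In whole tissue, fewer cells of a type and less RNA per cell cannot be told apart.

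ICAM1 had 20.0, 42.7 and 62.6 CPM as the lowest, median and highest early control, and 8.59, 15.3 and 32.3 CPM as the same values in mature controls. The stages overlapped, although the median mature control lay below every early one. The mean was 40.9 ± 14.4 CPM (SD, n = 7) early and 17.2 ± 8.66 CPM (SD, n = 6) later. ICAM1 fell with a log2 fold change of -1.26 ± 0.313 (SE, edgeR FDR = 0.0127). SELE, the other adhesion molecule gene, had 0.386, 2.28 and 4.81 CPM early and 0.122, 1.03 and 2.01 CPM later, with a log2 fold change of -1.21 ± 0.614 (SE, edgeR FDR = 0.163), which was within the spread between dogs.

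IL6 had 0, 1.78 and 4.77 CPM as lowest, median and highest value in early controls and 0, 0.133 and 0.439 CPM in mature controls. All mature controls were below the early median, and an early control with no IL6 read made the stages overlap. The log2 fold change was -3.09 ± 0.903 (SE, edgeR FDR = 0.0267). IL1B had 0.0771, 0.879 and 3.30 CPM in early and 0, 0.164 and 0.742 CPM in mature controls. Its log2 fold change of -2.55 ± 0.883 (SE) missed the P-value threshold with edgeR (edgeR FDR = 0.0522). For IL10 the values were 3.62, 9.53 and 20.3 CPM and 1.77, 3.86 and 9.25 CPM, and the highest mature value, of a day 20 control, lay just below the early median. The log2 fold change of -1.15 ± 0.415 (SE) also missed it (edgeR FDR = 0.0607). With DESeq2, the study's tool, ICAM1, IL6, IL1B and IL10 were called, 4 genes against 26% of all genes in either direction and 13.5% lower.

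In the signalling pathway itself, NFKBIA had 51.0, 70.1 and 125.0 CPM as lowest, median and highest early value and 41.6, 49.9 and 73.01 CPM as mature values. The log2 fold change was -0.52 ± 0.210 (SE, edgeR FDR = 0.0858), short of the P-value threshold. NFKB1 had 30.1, 41.3 and 48.9 CPM and 33.04, 39.5 and 51.5 CPM, with a log2 fold change of 0.015 ± 0.157 (SE, edgeR FDR = 0.955). None of the 7 genes separated all early from all mature controls, which 6.14% of genes did. The count of called genes rested on single dogs in part. Without the day 10 control dog 4, IL6 was no longer called and 1 gene remained, against 2520 of all 13527 genes tested. This dog had the highest ICAM1 and IL6 of all controls. Without the day 10 control dog 2, 4 genes were called, against 2458 of all 13520. That dog had the lowest early ICAM1 and no IL6 read. Macrophage markers moved with these genes, since the summed level of 8 of them was 157 to 448 CPM on day 5, 198.4 to 256 on day 10, 93.5 to 123 on day 20 and 82.4 to 122 on day 30 in controls. All 8, of 13 listed, were called lower, against 10.4% of all genes, and none was at 0 in any sample. These 8 had an identifier only through the study's DEG lists, drawn from these same samples, so their calls are not independent evidence. Their part in the result was not tested. Of the other markers, 3 of 8 of oocytes and 3 of 7 of smooth muscle were called lower, 4 of 8 of endothelium were called higher and 0 lower, and 0 of the 3 of lymphocytes were called, with 0 at an unadjusted P under 0.05 and 0 by DESeq2. The summed endothelial level was 685 to 1582 CPM on day 5, 757 to 1347 on day 10, 1148 to 1458 on day 20 and 1835 to 2246 on day 30.

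Treatment-induced effects were assessed on each day between treated and control dogs. On day 20, ICAM1, SELE, IL6, IL1B and NFKBIA were higher in treated dogs by log2 fold changes of 2.02 to 6.21, while those of NFKB1 and IL10 were 0.54 and -0.93. With edgeR 0 of the 7 genes passed both thresholds, against 0.102% of all genes, and 5 had an unadjusted P under 0.05, all higher, against 17% of genes in either direction and 11.7% higher. DESeq2 called the same 5 genes, against 10.8% of genes in either direction and 7.15% higher, and limma voom called 0, against 0.721% of genes. The median log2 fold change was 4.05 for the 7 genes and 0.11 over all genes. IL6 and IL1B reached the filter of 10 reads only through the treated dogs (means of 259 and 191 reads, against 3.0 and 5.0 in controls), so a difference in this direction was part of their entry into the test and their calls are no independent support. Of the 5 genes that reached it in both groups, 3 had an unadjusted P under 0.05 and were called by DESeq2, NFKBIA, ICAM1 and SELE, and the median was 2.02. Treated and control dogs did not overlap for 5 of the 7 genes, ICAM1, SELE, IL6, NFKBIA and NFKB1, all higher in treated dogs. Groups that did not overlap in either direction were found for 30.3% of all genes, and the share that was higher alone was not computed. IL6 counts among the 5 though it reached the filter only through the treated dogs. Of the 5 genes that reached it in both groups, 4 did not overlap.

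ICAM1 had 61.0, 334 and 362 CPM in treated dogs 2, 3 and 4, and 8.59, 18.7 and 20.3 CPM in control dogs 1, 2 and 3. Every treated dog was above every control, and dogs 3 and 4 were far above dog 2. ICAM1 differed by a log2 fold change of 4.05 ± 0.770 (SE), a 16.5-fold difference, with an FDR of 0.103 from edgeR and 2.99e-06 from DESeq2. SELE had 1.44, 35.6 and 27.8 CPM in treated and 0.901, 0.122 and 1.17 CPM in control dogs, listed in the same way. Treated dog 2 was just above the highest control, and the log2 fold change of 4.92 ± 1.22 (SE) came with an FDR of 0.147 from edgeR and 0.000158 from DESeq2.

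IL6 had 0.480, 12.7 and 25.5 CPM in treated dogs 2, 3 and 4 and 0, 0.427 and 0.106 CPM in controls. These are 9, 267 and 501 reads against 0, 7 and 2, so the log2 fold change of 6.21 ± 1.53 (SE, edgeR FDR = 0.147, DESeq2 FDR = 8e-05) rests on few control reads. IL1B had 0.586, 16.5 and 10.96 CPM in treated and 0, 0.0610 and 0.742 CPM in control dogs. Treated dog 2 lay below control dog 3, and the groups overlapped. Its log2 fold change was 5.10 ± 1.48 (SE, edgeR FDR = 0.186, DESeq2 FDR = 0.00210). IL10, the anti-inflammatory cytokine, had 3.09, 2.33 and 3.77 CPM in treated and 9.25, 5.24 and 3.60 CPM in control dogs. It was the only gene of the 7 with a lower mean in treated dogs, and with a log2 fold change of -0.93 ± 0.508 (SE, edgeR FDR = 0.371) and overlapping groups this was within the spread.

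NFKBIA had 113, 176 and 232 CPM in treated dogs 2, 3 and 4 and 44.8, 47.1 and 41.6 CPM in control dogs 1, 2 and 3. Here dog 2 was also well above all controls, and the controls lay close together. Its log2 fold change was 2.02 ± 0.421 (SE), a 4.05-fold difference, with an FDR of 0.129 from edgeR and 0.000477 from DESeq2. NFKB1 had 43.4, 56.5 and 46.4 CPM in treated and 33.1, 33.04 and 37.7 CPM in control dogs. The groups did not overlap, but the log2 fold change of 0.54 ± 0.345 (SE, edgeR FDR = 0.433) was not significant.

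The calls of this comparison depended on dog 2 of the treated group. Without it, edgeR called NFKBIA, IL1B, IL6, ICAM1 and SELE, with log2 fold changes of 2.23 to 6.75, and 7.4% of all genes. Without treated dog 3, treated dog 4 or any of the control dogs, 0 of the 7 were called, and at most 1 of all genes. With all 26 samples in a single fit, which shares the estimate of the spread between groups, the same 5 genes passed both thresholds, as did 11% of all genes.

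**Figure D2:**
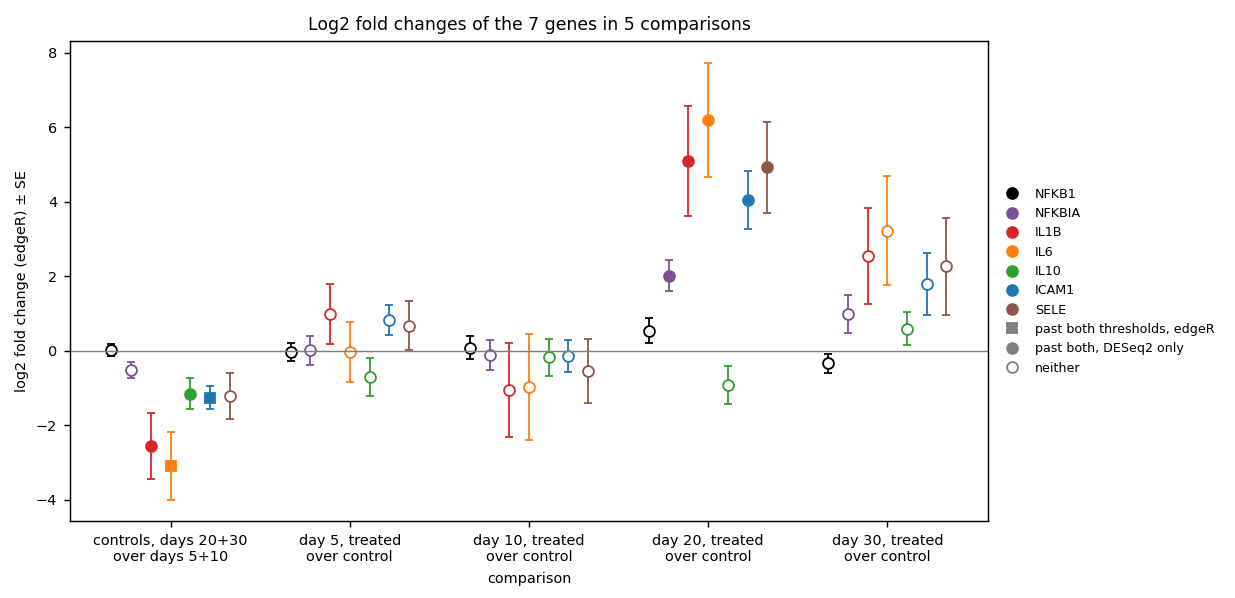
Log2 fold change with its standard error from edgeR on the vertical axis for the 7 genes in 5 comparisons on the horizontal axis, the control dogs over time on the left and treated over control dogs on each day to the right. Filled squares passed both thresholds with edgeR and filled circles with DESeq2 only. On day 20, 5 genes lie between 2.02 and 6.21, whereas in controls over time 6 of 7 lie below 0.

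Immediate-early genes moved with these 5 in the day 20 treated samples. Many cells switch on immediate-early genes within minutes of a stimulus. Of 18 listed, 14 had an identifier, and all 14 had higher values in treated dogs. With edgeR all 14 had an unadjusted P under 0.05, against 11.7% of all genes higher, and 0 were called. DESeq2 called 13, against 7.15% of all genes higher. These 14 had an identifier only through the study's DEG lists of these same samples, so the counts are not independent evidence. Their sum was 2221, 7804 and 6542 CPM in treated dogs 2, 3 and 4, in which ICAM1 was 61.0, 334 and 362 CPM, against 179 to 1077 CPM in controls. Day 5 treated dog 4 had 4798 CPM of these genes with 112 CPM of ICAM1 and 5.13 CPM of SELE. The levels did not always go together. Day 5 treated dog 1 had 1326 CPM of these genes with 91.5 CPM of ICAM1, and day 10 control dog 3 had 2437 CPM with 42.7 CPM. No immediate-early gene was at 0 in any sample, and their part in the result was not tested.

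Of 8 oocyte markers, 6 were called higher by edgeR and 8 by DESeq2 on day 20. Of all genes, these tools called 0.102% and 10.8% in either direction. NLRP5 and ZP4 were at 0 in all 3 controls, so they reached the filter only through the treated dogs. Up to 6 of the 8 were at 0 in a control dog. All markers named here had an identifier only through the study's DEG lists of these same samples, so these counts are not independent evidence. Day 20 treated dogs 2, 3 and 4 had oocyte sums of 163, 283 and 227 CPM, and dog 2, the lowest, was also lowest in ICAM1 and SELE. Day 30 treated dog 2 had 153 CPM of oocyte markers with 24.2 CPM of ICAM1 and 1.05 CPM of SELE, whereas day 30 treated dog 4 had 6.71 CPM of them with 141 CPM of ICAM1 and 17.1 CPM of SELE. The luteal markers, 5 of 11 listed, summed to 1291, 423 and 2176 CPM in day 20 treated dogs 2, 3 and 4, below the 2391 to 4207 CPM of the controls. Taken singly, 2 of the 5 had positive log2 fold changes. An unadjusted P under 0.05 was found for 1, which was lower, and DESeq2 called 1 lower and edgeR 0. For macrophages the ranges were 146 to 162 CPM in treated and 93.5 to 123 CPM in control dogs, with 1 of 8 markers, C1QA, called by DESeq2 and 0 by edgeR. The 3 lymphocyte markers CD3G, LCK and GZMB summed to 6.73 to 8.37 CPM against 1.5 to 3.60, and 2 of them were called higher by DESeq2 and 0 by edgeR, which gave 2 an unadjusted P under 0.05. Of 7 smooth muscle and pericyte markers, 4 were called higher and 1 lower by DESeq2 and 0 by edgeR. FSHR, the 1 listed granulosa cell marker with an identifier, was lower (log2 fold change -2.05, edgeR FDR = 0.146, DESeq2 FDR = 0.000954). Day 20 controls had 1712 to 2403 CPM of FSHR in CL tissue, so it cannot be read here as a measure of follicular granulosa cells. No identifier was at hand for neutrophil or B cell markers, and what each cell type contributed was not tested.

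SELE and ICAM1 are expressed by endothelium, so they were also set against the sum of 8 endothelial markers (PECAM1, CDH5, VWF, KDR, FLT1, EMCN, ENG and PLVAP). Of these, 0 had a P under 0.05 on day 20, and DESeq2 called 0. Per 100 CPM of endothelial markers, day 20 treated dogs 2, 3 and 4 had 0.0886, 6.34 and 2.11 CPM of SELE, and controls had 0.0785, 0.00970 and 0.0799. For ICAM1 the values were 3.75, 59.4 and 27.5 in treated and 0.748, 1.48 and 1.39 in control dogs. The endothelial sums were 1624, 562 and 1317 CPM in treated dogs 2, 3 and 4 and 1148 to 1458 CPM in controls. That of dog 3 was the lowest of all samples, which raises its ratios. Each treated dog was above each control on this scale, for SELE in dog 2 only just and with 27 reads. Dogs 3 and 4 stood far above dog 2, and what the amount of endothelium contributed was not tested.

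**Figure D3:**
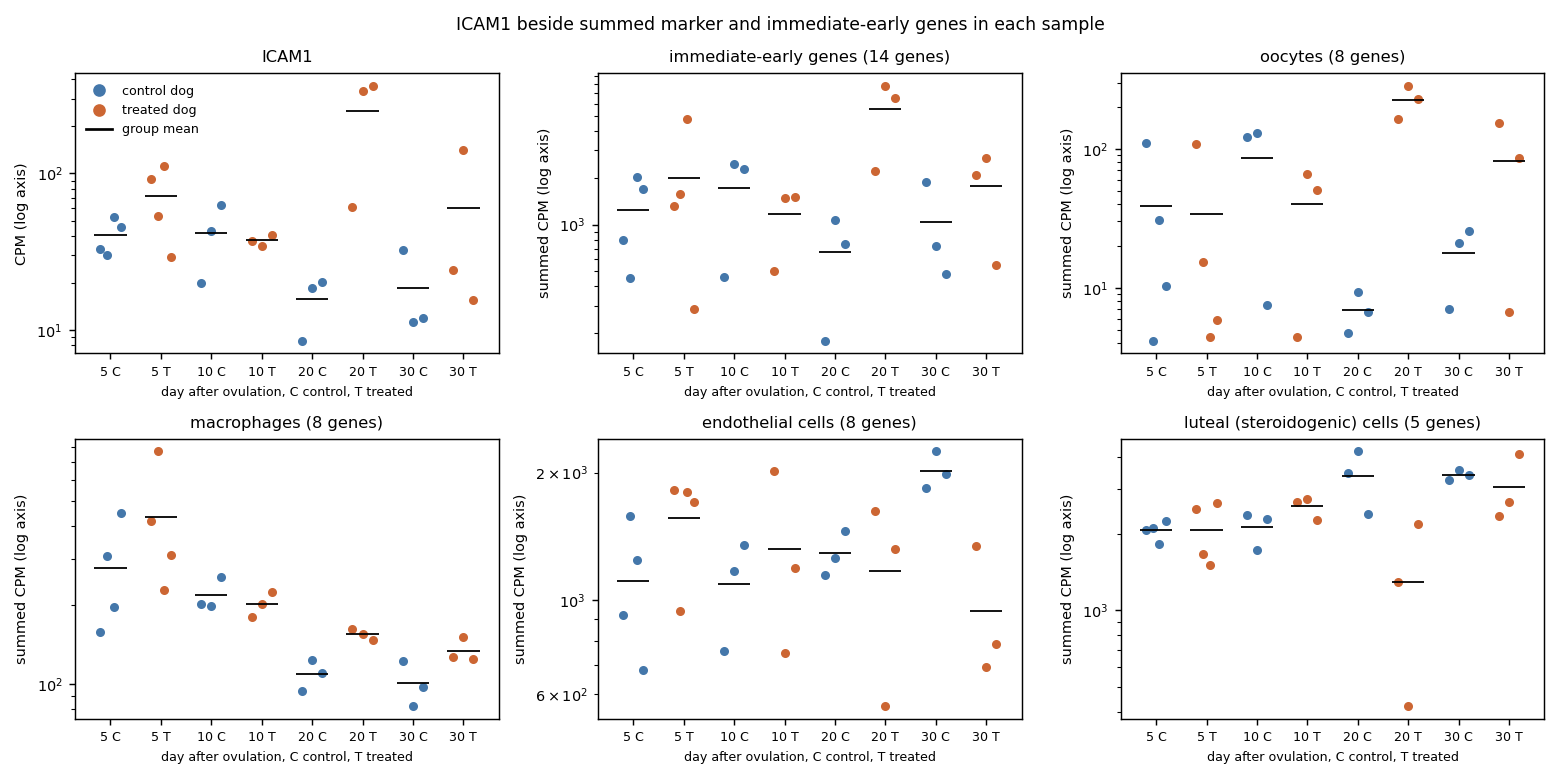
ICAM1 in CPM, and the summed CPM of immediate-early genes and of oocyte, macrophage, endothelial and luteal markers, on log axes for each of the 26 samples by day and treatment, with 1 point per dog and a bar at the group mean. In day 20 treated dogs ICAM1, immediate-early genes and oocyte markers lie above all day 20 controls, while in day 30 treated dogs the sample with the highest ICAM1 has the lowest sum of oocyte markers.

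On day 30, 0 of the 7 genes had an unadjusted P under 0.05 with edgeR, against 8.14% of genes, and 0 passed both thresholds with edgeR (0% of genes), DESeq2 (0.879%) or limma voom (0%). The means of 6 genes were nevertheless higher in treated dogs, and the median log2 fold change was 1.79 against 0.051 over all genes. IL1B and IL6 reached the filter only through the treated dogs, and without them the median was 0.99. Without treated dog 4 the median of the 5 genes that were tested was -0.0068. Treated dog 4 stood above the other dogs of the day. ICAM1 had 24.2, 141 and 15.5 CPM in treated dogs 2, 4 and 5 and 32.3, 11.3 and 11.98 CPM in control dogs 2, 3 and 4, with a log2 fold change of 1.79 ± 0.824 (SE, edgeR FDR = 0.628). SELE had 1.05, 17.1 and 0.290 CPM in treated and 1.61, 2.01 and 0.437 CPM in control dogs, with a log2 fold change of 2.26 ± 1.30 (SE, edgeR FDR = 0.686). In both genes dog 4 was several times above every control, and the other treated dogs lay within the control range, apart from SELE in dog 5, which was lower.

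The same dog was highest in 3 more genes. NFKBIA had 54.2, 216 and 61.6 CPM in treated and 73.01, 53.1 and 52.8 CPM in control dogs, and its log2 fold change was 0.99 (edgeR FDR = 0.654). IL6 had 0.116, 4.94 and 0.406 CPM in treated and 0.161, 0.439 and 0 CPM in control dogs, and the log2 fold change 3.23 (edgeR FDR = 0.627). IL1B had 0.233, 3.18 and 0.290 CPM and 0.268, 0.376 and 0 CPM, and the log2 fold change 2.55 (edgeR FDR = 0.654). Without dog 4 the log2 fold change was 0.15 for ICAM1, -0.0068 for NFKBIA and -0.98 for SELE, and IL1B and IL6 fell under the filter of 10 reads. Its sum of immediate-early genes, 2679 CPM, was the highest on day 30, and day 30 treated dog 2 had 2084 CPM. In treated dogs 2, 4 and 5 the endothelial markers summed to 1342, 696 and 787 CPM, all below the 1835 to 2246 CPM of controls, and 6 of 8 were lower at an unadjusted P under 0.05, 3 called by DESeq2 and 0 by edgeR. Oocyte markers summed to 153, 6.71 and 85.7 CPM in these dogs and 7.07 to 25.7 CPM in controls, and 5 of 8 were higher at an unadjusted P under 0.05, 1 called by DESeq2 and 0 by edgeR. What either contributed was not tested.

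NFKB1 had 38.7, 40.3 and 24.6 CPM in treated dogs 2, 4 and 5 and 49.3, 41.3 and 51.5 CPM in controls. It was the only 1 of the 7 genes whose groups did not overlap on day 30, with all treated dogs lower, a share near the 14.8% of all genes, and its log2 fold change of -0.34 ± 0.252 (SE, edgeR FDR = 0.773) was not significant. IL10 had 3.55, 3.39 and 5.16 CPM in treated and 1.77, 2.82 and 4.12 CPM in control dogs. The groups overlapped, and the log2 fold change was 0.60 ± 0.449 (SE, edgeR FDR = 0.779).

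In the early CL no difference between treated and control dogs exceeded the spread for any of the 7 genes. On day 5, 0 had an unadjusted P under 0.05 with edgeR, against 11.8% of all genes, and 0 were called by edgeR (0% of genes), DESeq2 (0.733%) or limma voom (0%). All groups overlapped, while 8.64% of genes had groups that did not. ICAM1 came nearest, with 91.5, 53.4, 112 and 29.3 CPM in treated dogs 1, 2, 4 and 5 and 33.2, 30.0, 52.7 and 45.5 CPM in control dogs 1, 3, 4 and 5. Dogs 1 and 4 of the treated group exceeded all controls, and dog 5 was below them all. The log2 fold change was 0.83 ± 0.413 (SE, edgeR FDR = 0.415). IL10 had 5.41, 12.5, 6.89 and 2.97 CPM in treated and 5.59, 9.56, 9.53 and 20.3 CPM in control dogs, and a log2 fold change of -0.71 ± 0.512 (SE, edgeR FDR = 0.472).

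The other 5 genes had smaller or less precise differences on day 5. The log2 fold change was -0.042 ± 0.243 (SE) for NFKB1 and 0.011 ± 0.381 (SE) for NFKBIA. Among the cytokines it was 1.0 ± 0.805 (SE) for IL1B and -0.032 ± 0.795 (SE) for IL6. For SELE it was 0.68 ± 0.649 (SE). The median over the 7 genes was 0.011, and 0.031 over all genes. Smooth muscle markers were higher in these treated dogs, with sums of 914 to 3459 CPM against 442 to 614 in controls and 5 of 7 called by DESeq2, but 0 by edgeR, and what they contribute to the values above was not tested.

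On day 10, 0 of the 7 genes had an unadjusted P under 0.05 with edgeR, against 0.902% of genes, and 0 were called by edgeR (0% of genes), DESeq2 (0%) or limma voom (0%). Groups overlapped for all 7, whereas 4.84% of genes had groups that did not. The largest differences were those of the cytokines with few reads. IL1B had 0, 1.15 and 2.02 CPM in treated dogs 1, 4 and 5 and 0.0771, 3.30 and 3.24 CPM in control dogs 2, 3 and 4, with a log2 fold change of -1.06 ± 1.27 (SE). IL6 had 0, 2.57 and 0.751 CPM in treated and 0, 1.79 and 4.77 CPM in control dogs, with a log2 fold change of -0.97 ± 1.43 (SE). Within each group of this day, 1 dog had no or next to no reads of these 2 genes. ICAM1 lay at 37.3, 34.6 and 40.8 CPM in treated dogs, closer together than the 20.0, 42.7 and 62.6 CPM of controls, and its log2 fold change was -0.14 ± 0.428 (SE). NFKB1, NFKBIA, IL10 and SELE had log2 fold changes between -0.55 and 0.086.

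Whether the treatment effect of day 20 differed from that of the other days was tested as an interaction in a fit of all 26 samples. With edgeR 0 of the 7 genes passed both thresholds against day 5, day 10 or day 30, which held for 0% of genes each time. An unadjusted P under 0.05 was found for 5 genes against day 5 (6.11% of genes), 5 against day 10 (12.5%) and 2 against day 30 (13.6%). DESeq2 called 0 of the 7 against day 5 (0.374% of genes), 5 against day 10 (4.16%) and 0 against day 30 (2.5%). The 5 genes were NFKBIA, IL1B, IL6, ICAM1 and SELE each time, and the 2 were NFKB1 and ICAM1. For ICAM1 the effect of day 20 exceeded that of day 10 by 4.15 ± 1.02 (SE, log2 scale, edgeR FDR = 0.133, DESeq2 FDR = 0.00949). It exceeded that of day 5 by 3.17 ± 0.941 (SE, edgeR FDR = 0.483) and that of day 30 by 2.30 ± 0.995 (SE, edgeR FDR = 0.336). Without day 30 treated dog 4, the difference from day 30 was 3.90 for ICAM1. Then 0 of the 7 genes passed both thresholds with edgeR, as did 0 of all 14184 genes tested.

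The difference from day 10 was 2.09 for NFKBIA (edgeR FDR = 0.185, DESeq2 FDR = 0.0740), 7.15 for IL6 (edgeR FDR = 0.184, DESeq2 FDR = 0.0701), 6.13 for IL1B (edgeR FDR = 0.203, DESeq2 FDR = 0.0524) and 5.43 for SELE (edgeR FDR = 0.184, DESeq2 FDR = 0.0301), all on the log2 scale. NFKB1 was the gene with the smallest P against day 30, where its effects had opposite signs, 0.54 on day 20 and -0.34 on day 30. The difference was 0.96 ± 0.322 (SE, edgeR FDR = 0.266). These 3 tests share the day 20 samples.

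Over the 26 samples, NFKBIA, IL1B, IL6, ICAM1 and SELE rose and fell together, NFKB1 was less closely correlated with them and IL10 was not. Of 21 pairs, 12 were correlated with an adjusted p under 0.05 (two-sided permutation test of Pearson's r of log2 CPM, 100000 resamples, Benjamini-Hochberg adjustment over the 21 pairs), all positively, and Spearman's rho gave 12 as well. The 10 pairs among those 5 genes had r from 0.69 to 0.91 and rho from 0.55 to 0.87. The closest were IL1B and IL6 (r = 0.91, rho = 0.87, permutation p = 1e-05, the smallest these resamples can give, adjusted p = 3.5e-05). Next came NFKBIA and ICAM1 (r = 0.85, rho = 0.87, permutation p = 1e-05, adjusted p = 3.5e-05). For the 2 adhesion molecules r was 0.79 and rho 0.68 (permutation p = 2e-05, adjusted p = 6e-05). Without the 2 samples farthest from the median of the former gene of a pair, these 3 correlations were 0.86, 0.78 and 0.62.

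NFKB1 was correlated with ICAM1 (r = 0.48, rho = 0.43, permutation p = 0.0140, adjusted p = 0.0246) and with SELE (r = 0.49, rho = 0.44, permutation p = 0.0119, adjusted p = 0.0228). Without the 2 farthest samples r was 0.31 and 0.28, with adjusted permutation p of 0.218 and 0.266, so both rest on those samples. Without the day 20 treated group they were 0.32 and 0.35 (adjusted permutation p = 0.203 and 0.165). In the 13 treated dogs NFKB1 had an r of 0.80 with ICAM1 (adjusted permutation p = 0.00234), 0.69 with SELE (adjusted permutation p = 0.0157) and 0.70 with IL1B (adjusted permutation p = 0.0154). In the 13 controls these were 0.096, 0.20 and 0.0095, and the difference between treated dogs and controls was not tested. The 6 pairs with IL10 had r from -0.17 to 0.11 and rho from -0.13 to 0.17, with adjusted permutation p of at least 0.530 for r. In the 13 controls alone, IL10 and IL6 had an r of 0.62 (adjusted permutation p = 0.0526), and in the 13 treated dogs -0.30 (adjusted permutation p = 0.377).

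A pooled correlation includes differences between groups, so deviations from the group means were examined too, with values permuted within groups. Here 9 of 21 pairs had an adjusted p under 0.05, all among the 5 genes, with r of 0.86 for IL1B and IL6 (adjusted permutation p = 0.00588) and 0.85 for NFKBIA and ICAM1 (adjusted permutation p = 0.000630). Dogs of a group that were high in 1 of these genes tended to be high in the others. Within control dogs 8 pairs passed and within treated dogs 13. Without the day 20 treated group 10 pairs passed, and without the treated groups of both day 20 and day 30, an alternative added after the data were examined, 6. Those 6 were NFKBIA with ICAM1 (r = 0.69), IL1B with IL6 (r = 0.85), and IL1B and IL6 each with ICAM1 and SELE. The labels give no batch, so none could be examined within.

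**Figure D4:**
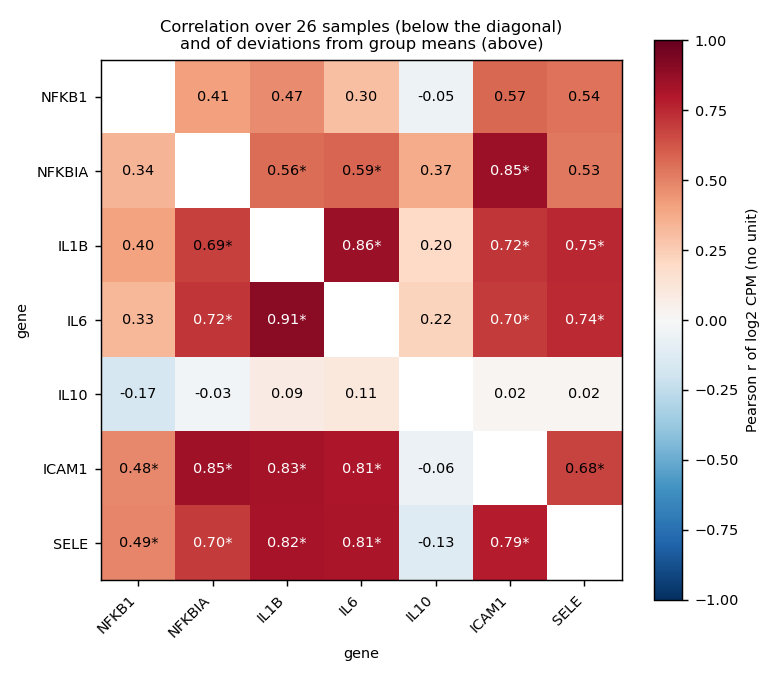
Pearson's r between each pair of the 7 genes, over 26 samples below the diagonal and for deviations from group means above it, with colour from -1 in blue to 1 in red and a star where the adjusted permutation p is under 0.05. The 10 pairs of NFKBIA, IL1B, IL6, ICAM1 and SELE have r of 0.69 to 0.91 below the diagonal, and the row and column of IL10 stay pale.

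The genes most like each of the 7 in log2 CPM over the 26 samples were sought among 4344 genes with a symbol that passed the filter, out of 14171 that did. The symbols came from the study's DEG lists, so these candidates had been chosen on the same samples. Genes without a symbol could be closer. For NFKBIA they were RND1 (r = 0.89), PPP1R15A (r = 0.88) and IRF1 (r = 0.88). For ICAM1 they were IRF1 (r = 0.92), IL1RN (r = 0.91) and MAFF (r = 0.89), of which IL1RN encodes the antagonist of the IL-1 receptor. SELE was most like SLC2A3 (r = 0.89), TNFAIP3 (r = 0.87) and MAFF (r = 0.83), and TNFAIP3 encodes a brake on NF-kB signalling. IL6 was most like SLC2A3 (r = 0.89), KLF6 (r = 0.85) and TNFAIP3 (r = 0.85), and IL1B like IL1RN (r = 0.87), SLC2A3 (r = 0.87) and KLF6 (r = 0.85). IRF1, IL1RN, SLC2A3, KLF6, TNFAIP3 and MAFF were each named for more than 1 of these 5 genes. KLF6 is also on the list of immediate-early genes. SLC2A3, which encodes a glucose transporter, was named for IL1B, IL6 and SELE. NFKB1 and IL10 shared no gene with the rest, with NEO1 (r = 0.76), NOTCH2 (r = 0.75) and CREB3L2 (r = 0.75) for NFKB1 and IRF8 (r = 0.73), CDH6 (r = 0.71) and HPX (r = 0.70) for IL10. Without the day 20 treated group, r was 0.74 to 0.85 for the genes named for NFKBIA, IL1B, IL6, ICAM1 and SELE and 0.66 to 0.76 for those of NFKB1 and IL10. These values are descriptive, since samples of a group are alike in many genes.

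Further genes of the same pathways were described from 8 lists covering NF-kB signalling, the IL-1, IL-6 and IL-10 families, leukocyte adhesion, TNF, Toll-like receptors and chemokines. Only genes on the study's DEG lists had a symbol, 18 of 49 listed for NF-kB signalling, 7 of 16 for IL-1, 6 of 17 for IL-6, 2 of 8 for IL-10, 12 of 21 for adhesion, 2 of 6 for TNF, 4 of 12 for Toll-like receptors and 9 of 15 for chemokines. These genes had thus been chosen on these samples, and their directions are not independent evidence. Among controls over time, 53 of them other than the 7 were tested, and edgeR called 22 lower and 6 higher in the mature CL, against 20.5% of all genes in either direction and 10.4% lower, with a median log2 fold change of -0.88.

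Of NF-kB signalling genes, 6 were called lower and 2 higher over time. Those with the smallest P were NOD1, an intracellular sensor of bacteria (log2 fold change -1.16, edgeR FDR = 0.000850), the atypical inhibitor BCL3 (-1.57, FDR = 0.00844), the kinase MAP3K8 (-0.88, FDR = 0.0240), the atypical inhibitor NFKBIZ (-1.12, FDR = 0.0272) and the adaptor MYD88 (-0.57, FDR = 0.0395). IRAK2, a kinase downstream of IL-1 and Toll-like receptors, rose by 0.45 (edgeR FDR = 0.0160). In the lists of IL1B, IL6 and IL10, the antagonist gene IL1RN was called lower at -1.68 on the log2 scale (edgeR FDR = 0.00496). SOCS3, a feedback inhibitor of IL-6 signals, fell with -2.45 (edgeR FDR = 0.00883). OSMR and LIF were also called lower, with -1.15 and -1.45, and LIFR, the receptor of LIF, higher with 0.98. IL10RA, the IL10 receptor subunit, had -0.98 (edgeR FDR = 0.0764) and missed the P-value threshold.

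Beside ICAM1, the adhesion genes SELPLG, a selectin ligand on leukocytes (-2.04, edgeR FDR = 0.000762), JAM3 (-0.61), VCAM1, an endothelial ligand of leukocyte integrins (-1.36, edgeR FDR = 0.00543) and ICAM4 (-2.16) were called lower over time, as log2 fold changes, and CD34 was called higher with 1.15. TNFRSF1A, the main TNF receptor, fell with -0.56 (edgeR FDR = 0.0125), and TLR2 rose with 1.5 (edgeR FDR = 0.000281). Of 9 chemokine genes 6 were called lower and 1 higher. Log2 fold changes were -3.89 for CCL13, -4.54 for CCL22, -1.10 for CCL2, -2.05 for CCL8 and -1.68 for CCL4. CCL13, CCL22 and ICAM4 had means of 1.69, 1.06 and 1.27 CPM in early controls and 0.110, 0.040 and 0.272 CPM in mature ones. The mature levels are under 10 reads, so these 3 reached the filter only through the early controls, and their calls are no independent support. CXCL8, the neutrophil chemokine, went the other way with 3.19 (edgeR FDR = 0.0358), with 48.2 ± 54.1 CPM (SD, n = 7) in early controls and 439 ± 459 CPM (SD, n = 6) in mature ones.

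On day 20, 51 of the listed genes other than the 7 were tested, and edgeR called 0. An unadjusted P under 0.05 was found for 14 higher and 3 lower in treated dogs, against 17% of all genes. DESeq2 called 10 higher and 3 lower, against 10.8% of all genes, and the median log2 fold change was 0.94. Those with the smallest P in their lists were IL1RN (3.69 ± 0.674, log2 fold change ± standard error), CCL4 (4.18 ± 0.900), CCL5 (2.31 ± 0.496), ZC3H12A, an RNase that degrades cytokine transcripts (2.63 ± 0.577), IL10RA (1.93 ± 0.478) and SOCS3 (3.32 ± 0.860). All 6 passed both thresholds with DESeq2 and had every treated dog above every control, as ICAM1 and SELE did. The 6 were picked by smallest P in these same samples, so this is no independent support. Of all genes, 30.3% had day 20 groups that did not overlap, in either direction. TLR3 and TLR2 had lower values, with -2.20 ± 0.695 and -1.87 ± 0.628, also called by DESeq2. TNFRSF1B (1.54 ± 0.722) and TNFRSF1A (0.11 ± 0.443) were called by neither tool.

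On the other days edgeR called 0 of the listed genes. On day 5, 5 of 53 had an unadjusted P under 0.05 and higher values in treated dogs and 2 lower (11.8% of all genes), and DESeq2 called 1 (0.733% of all genes), TNFRSF1B, with a log2 fold change of 1.63. The other genes of smallest P in their lists had log2 fold changes of 1.03 for TNIP1, 0.85 for NFKBIB, -1.55 for IL18R1, -0.76 for IL1R1, 0.56 for LIF, -0.35 for OSMR and 0.58 for IL10RA. For the lists of adhesion, TNF, Toll-like receptors and chemokines they were 1.24 for ITGB2, 0.87 for CD34, 0.55 for TNFRSF1A, -1.31 for TLR3, -0.39 for TLR2, 2.54 for CCL13 and 0.61 for CCL2. On day 10, 0 of 53 had an unadjusted P under 0.05, DESeq2 called 0, and the log2 fold changes were -0.77 for TNFAIP3, 0.72 for TNIP1, -0.60 for IL1R1, -0.48 for SOCS3, -0.36 for OSMR and 0.29 for IL10RA. In the remaining lists they were 0.79 for CD34, 0.44 for CD99, 0.77 for TNFRSF1B, 0.27 for TNFRSF1A, -1.07 for TLR6, 0.33 for TLR2, -1.99 for CXCL8 and -1.28 for CXCL10.

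On day 30, 49 listed genes were tested, 7 had an unadjusted P under 0.05 and higher values in treated dogs and 3 lower (8.14% of all genes), and DESeq2 called 0 (0.879% of all genes). Log2 fold changes were 2.03 for TNIP3, 0.90 for TBK1, -0.88 for IL1R1, 1.10 for IL1A, 1.25 for SOCS3 and 0.10 for IL10RA in the lists of NF-kB, IL-1, IL-6 and IL-10. In the others they were -0.88 for PECAM1, -0.98 for CD34, -0.37 for TNFRSF1A, -0.34 for TNFRSF1B, -0.66 for TLR7, -0.36 for TLR2, 1.23 for CCL8 and 2.20 for CCL2. The median over the listed genes was 0.11. The treatment comparison of each day uses control dogs that are also in the comparison over time, so its fold changes are not independent of that comparison.

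**Figure D5:**
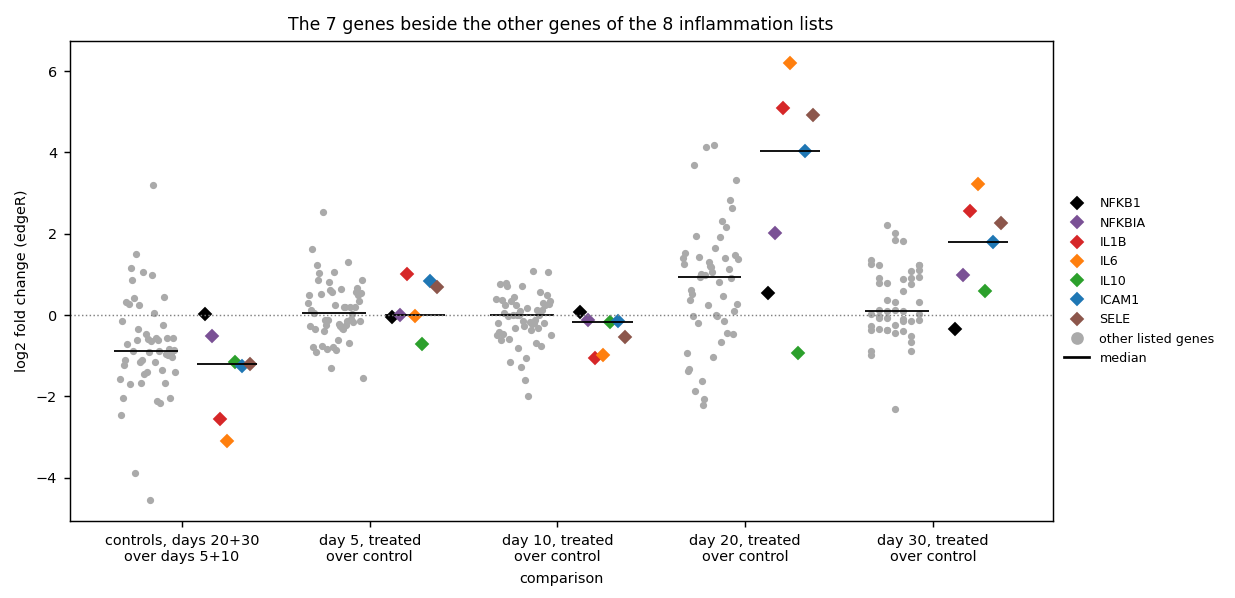
Log2 fold change from edgeR on the vertical axis for the 7 genes (coloured diamonds) and the other genes of the 8 lists (grey points) in 5 comparisons on the horizontal axis, with bars at the medians. On day 20 the median of the 7 genes is 4.05 (2.02 without IL1B and IL6) and that of the other listed genes 0.94, against 0.011 and 0.046 on day 5 and -0.18 and 0.00057 on day 10.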

How the data were processed

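Poly-A selected libraries of 26 CL samples (TruSeq v2, a kit that does not mark strand, so antisense reads cannot be told apart) were processed by the authors with the aligner STAR, the build CanFam3.1 and the counter featureCounts, per the labels. The deposited values are raw counts of reads on 19856 genes per sample, used as deposited. Total counts ranged from 12831896 to 22658950 per sample, and genes with few reads (IL1B, IL6, SELE) are the least precise. The authors left out sequenced samples that they judged to be outliers from sample correlations and scatter plots, and these are not analysed here. The paper states that the correlation within groups was more homogeneous afterwards. SDs and P-values of the affected groups may thus rest on too small a spread, and by how much was not tested.

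Counts were analysed in R 4.3.3 with edgeR 4.0.16 (TMM factors, quasi-likelihood test, the samples of each comparison only), and with DESeq2 1.42.0 and limma 3.58.1 (voom) as alternatives. Only genes whose mean reached 10 reads in a compared group were tested, and P-values were adjusted over all of them. As in the study, a call needed P under 0.01 and FDR under 0.1. The standard error is the absolute log2 fold change divided by the square root of F. CPM used TMM factors over all samples, and log2 CPM a prior count of 2. The fits were tested on simulated data.

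The 7 genes and all lists were chosen with earlier results of these data known. Named genes were the 7, up to 6 called per list and comparison by smallest P or otherwise the 2 of smallest P, and the 3 genes with the highest r for each of the 7. Symbols came from the study's lists of DEGs, which pair 4347 identifiers with a symbol and also hold the study's fold changes and P-values, which were not used. Cell type markers and immediate-early genes had an identifier only through these lists. Counts of them called or moved are therefore not independent evidence in any comparison. Comparisons within days have 3 or 4 dogs per group. Other normalisations, filters, thresholds, a shared fit, a block for the animal number and leaving out each dog were tried. Genome positions and sequences are not given, since no reference of this build was used here.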

Additional observations from a re-analysis of the deposited data

How the results depend on the processing

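The sign of each log2 fold change and its side of the thresholds held in 316 of 354 values under alternatives that kept all samples, and in 781 of 817 values with 1 dog left out. Most of the 817 come from the interaction tests, where dogs of days outside the test were also left out and could change little. Elsewhere 80 held over time and 4 reversed, 46 held on day 5 and 10 reversed, and 37 held on day 10 and 5 reversed. On day 20, 37 held and 5 came to pass the thresholds, and on day 30, 38 held and 2 reversed. In controls over time, where 2 of the 7 genes were called, DESeq2 called 4 with and without its own cutoffs, and limma voom and the fit of all 26 samples called 1 each. All genes called numbered 2774 of 13503, 3513 with DESeq2, 2844 with limma voom and 1754 of 14171 in the fit of all samples. With 1 dog left out, 1 to 4 of the 7 were called. It was 1 without day 10 control dog 4 (2520 of all 13527 genes) and 4 without day 10 control dog 2 (2458 of all 13520). On day 20, where 0 were called, DESeq2 called 5 with and without its cutoffs, the fit of all 26 samples 5, the filter of filterByExpr 2, and RLE factors and no filter 1 each. With 1 dog left out it was 0 to 5, with 5 without treated dog 2. The count of all genes called on day 20 was 14, and it was 1479 with DESeq2, 1559 in the fit of all samples, 99 with limma voom, 95 with RLE factors, 109 without a filter, 129 with filterByExpr, 1 at an FDR under 0.05, and 0 to 1016 with 1 dog left out. For the effect of day 20 over that of day 10, DESeq2 called 5, and leaving out 1 dog gave 0 to 1, the 1 being ICAM1 without day 5 treated dog 1. Without that dog 161 of all 14181 genes were called, against 0 with all dogs, and DESeq2 called 589 of 14171. Correlated pairs numbered 12, and 6 without the treated groups of days 20 and 30. The cause was not tested for any of these.

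Animal numbers recur between groups, but the labels describe no pairing, and same-numbered samples did not all deviate together. The correlation of their deviations from group means averaged 0.15 over 3 pairs on day 5 (lowest -0.092, other pairs -0.041), -0.39 over 2 pairs on day 20, -0.074 over 2 pairs on day 30 and -0.066 over 9 pairs of controls over time (lowest -0.42). With the number as a block, 1 gene was called over time, ICAM1 (edgeR FDR = 0.0612) but not IL6 (FDR = 0.187), all genes called numbered 1806 instead of 2774 over time and 10 instead of 14 on day 20, and 0 of the 7 were called on days 5, 20 and 30. The block could not be fitted on day 10. It reversed NFKBIA on day 5 to -0.24 and IL1B on day 5 from 1.0 to -0.082. NFKBIA on day 5, at 0.011, was also negative with limma voom (-0.10) and without a filter (-0.0080).

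Leaving out 1 dog turned the sign of 11 log2 values that were not called. Their ranges were -0.052 to 0.078 for NFKB1 over time, -0.14 to 0.082 for NFKB1, -0.20 to 0.29 for NFKBIA and -0.77 to 0.30 for IL6 on day 5. On day 10 they were -0.35 to 0.31 for NFKBIA, -2.49 to 0.24 for IL6, -0.52 to 0.24 for IL10 and -0.47 to 0.25 for ICAM1. On day 30 they were -0.0068 to 1.28 for NFKBIA and -0.98 to 2.83 for SELE, both lowest without treated dog 4, and for IL10 the effect of day 20 over that of day 5 ranged from -0.74 to 0.23.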
